A study of Mus musculus with 9 samples.

Results

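Type IV collagens build the network of the basement membrane, and integrins of the beta 1 family hold cells to it. The 7 genes described here are the type IV collagen chains of the array, Col4a1 and Col4a3, the integrin alpha chains that bind collagen, Itga1 and Itga2, the alpha chains that bind laminin, Itga3 and Itga6, and Itgb1, the beta chain that all 4 alpha chains can pair with. They were chosen by name and known function, as 7 of the 84 genes of a mouse wound healing PCR array, by a rule that uses no measured value, but with earlier results of these data known. In colon of mice given dextran sodium sulfate (DSS) with dipotassium glycyrrhizate (DPG), and relative to 5 housekeeping genes, Col4a1 stood 5.47-fold and Itgb1 2.39-fold below the level with DSS alone, while Itga2, Itga3 and Itga6 lay within 1.20-fold of their level with DSS alone. Col4a3 was 5.12-fold below the untreated level with DSS and DPG, where its cycles came late, and 5.99-fold below it with DSS alone.

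The basement membrane is a thin sheet under epithelia and around vessels, nerves and muscle cells, made of type IV collagen and laminin networks. The alpha 1 chain joins the alpha 2 chain in the network found in nearly all basement membranes, whereas the alpha 3 chain belongs to a network of restricted distribution, best known from the kidney glomerulus. An integrin is a dimer of an alpha and a beta chain, and in the intestine integrins anchor epithelial cells to laminin and stromal and smooth muscle cells to collagen.

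Distal colon of female C57BL/6 mice aged 8 to 9 weeks was studied in 3 groups. DSS+DPG mice drank 3% DSS, a polymer that injures the colonic epithelium and causes colitis, for 7 days and received DPG, a salt of the liquorice compound glycyrrhizin, by gavage at 8 mg/kg/day. DSS mice drank 3% DSS over the same 7 days, and untreated (UN) mice drank regular water. The sources used here describe no gavage of vehicle in the DSS and UN groups. For each group the RNA of 5 mice was pooled and the pool was run on 3 arrays, so every SD, SE and p-value below measures the spread between repeats of 1 pool and not between mice.

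The array reads each gene as a threshold cycle (Ct), the PCR cycle at which its product crosses a set fluorescence, so that a later cycle means less template, by a factor of about 2 for each cycle. Levels are given as delta Ct, the Ct minus the mean Ct of the housekeeping genes Actb, B2m, Gapdh, Gusb and Hsp90ab1 on the same array, and a higher delta Ct is a lower level. A log2 fold change is the difference of minus delta Ct between groups, the first-named minus the second, and a gene passed the test when its limma p-value was under 0.05 after Benjamini-Hochberg adjustment across the panel genes tested, the fit holding all 9 arrays. Assays differ in efficiency, so the levels of the 7 genes were compared between groups and not with one another. The median Ct of the 84 genes was 29.60 to 29.69 in DSS+DPG arrays, 26.57 to 26.77 in DSS arrays and 27.84 to 27.89 in UN arrays, and 77, 80 and 77 genes had a Ct below 35 in those groups. The reverse transcription control of the array averaged 23.73, 23.96 and 23.98 cycles in DSS+DPG, DSS and UN arrays. Of the 7 genes, 6 had a Ct below 35 on every array, as did 73 of the 84, and Col4a3 was the exception. The epithelial gene Cdh1, E-cadherin, had a Ct between 24.96 and 24.98 in DSS+DPG arrays, 24.01 and 24.09 in DSS arrays and 22.70 and 22.83 in UN arrays. Its delta Ct averaged 1.53 in DSS+DPG, 1.82 in DSS and 0.78 in UN, so that its level was lowest in DSS. Cdh1 is 1 of 3 epithelial genes counted below, of which Itgb6 went the other way in DSS+DPG against DSS and in DSS against UN. In whole tissue, fewer cells of a type and less RNA per cell cannot be told apart.

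The sequences upstream of Col4a1, Itgb1 and Itga3 are shown because Col4a1 and Itgb1 were lower with DPG relative to the 5 housekeeping genes while Itga3 was not. Each is a RefSeq window of GRCm38.p6, 250 bases before to 50 bases after the start site, read 5′ to 3′ on the gene's strand, and 5 of the 7 genes were matched to such a window (Col4a3 and Itga6 were not). Capitals mark GC boxes (GGGCGG) and CCAAT boxes (CCAAT), searched on both strands (a match on the opposite strand reads CCGCCC or ATTGG). The Col4a1 window is chr8:11312777-11313076 (minus strand), the Itgb1 window chr8:128685404-128685703 (plus strand) and the Itga3 window chr11:95076665-95076964 (minus strand), the first of 2 windows of that gene.
Col4a1: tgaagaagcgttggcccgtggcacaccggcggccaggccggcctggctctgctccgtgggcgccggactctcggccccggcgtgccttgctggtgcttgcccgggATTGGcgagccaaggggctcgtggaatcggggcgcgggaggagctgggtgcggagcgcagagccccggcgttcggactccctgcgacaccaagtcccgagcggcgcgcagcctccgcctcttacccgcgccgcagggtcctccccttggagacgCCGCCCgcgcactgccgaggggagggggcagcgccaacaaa
Itgb1: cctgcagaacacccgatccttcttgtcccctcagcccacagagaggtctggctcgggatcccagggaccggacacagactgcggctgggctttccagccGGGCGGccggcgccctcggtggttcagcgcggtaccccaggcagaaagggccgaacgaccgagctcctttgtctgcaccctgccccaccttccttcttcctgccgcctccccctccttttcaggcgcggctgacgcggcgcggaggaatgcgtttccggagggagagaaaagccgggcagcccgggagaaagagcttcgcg
Itga3: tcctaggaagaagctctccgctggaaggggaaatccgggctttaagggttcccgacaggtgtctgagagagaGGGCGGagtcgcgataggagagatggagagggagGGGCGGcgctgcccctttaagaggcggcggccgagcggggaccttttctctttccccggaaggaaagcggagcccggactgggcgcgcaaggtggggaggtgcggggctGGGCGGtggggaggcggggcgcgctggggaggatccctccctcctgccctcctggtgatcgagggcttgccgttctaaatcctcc
The Col4a1 window held 1 GC box and 1 CCAAT box, the Itgb1 window 1 GC box and the Itga3 window 3 GC boxes. Among 32851 mouse windows of the same length, 35.7% held a GC box and 37.4% a CCAAT box. A TATA box (TATAAA, in 13.6% of windows) and an AP-1 site (TGANTCA, in 7.81%) were in none of the 3 windows printed, on either strand. The other Itga3 window (chr11:95069149-95069448, minus strand), not printed, held 1 AP-1 site, 1 CCAAT box and 1 GC box. The Col4a1 window overlapped that of Col4a2, the gene of its partner chain on the opposite strand, by 78 bases, and Col4a2 was not on the array. GC content was 74% in the Col4a1 window, 67.3% in the Itgb1 window and 66.7% in the Itga3 window.

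With DPG added to DSS, 3 of the 7 genes were lower than with DSS alone (Col4a1, Itgb1 and Itga1), 1 was higher (Itga3) and 3 did not pass the test (Col4a3, Itga2 and Itga6). Over the whole panel, 76.2% of the 84 genes were lower and 13.1% higher in this comparison. The median log2 fold change was -0.09 over the 7 genes, against -1.30 over the panel. Between DSS and UN, 2 of the 7 were higher (Col4a1 and Itgb1), 4 were lower (Col4a3, Itga1, Itga2 and Itga6) and Itga3 did not pass, where 61.9% of the panel was higher and 29.8% lower. The median was -0.18 over the 7 genes and 0.71 over the panel. Between DSS+DPG and UN, 6 of the 7 were lower and Itga3 was higher, against 69.5% lower and 22.0% higher of the 82 panel genes that could be tested. The arrays of the groups did not overlap for 5 of the 7 genes between DSS+DPG and DSS (90.5% of the panel), for 6 of 7 between DSS and UN (95.2%) and for 7 of 7 between DSS+DPG and UN (93.9%). The comparisons share the arrays of each group and are therefore not independent of one another.

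**Figure D1:**
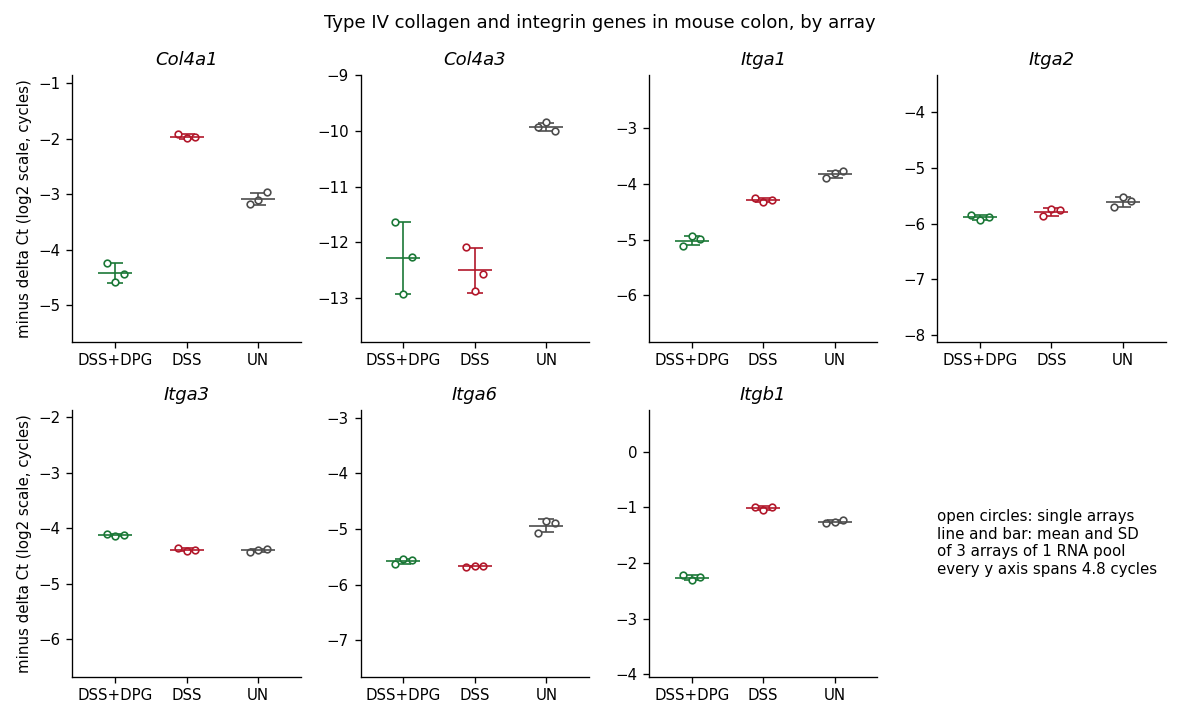
Minus delta Ct (log2 scale, in cycles, higher meaning more transcript) of the 7 genes on each of the 9 arrays, for DSS+DPG, DSS and UN from left to right in each panel. Open circles are single arrays, and the line and bar give the mean and SD of the 3 arrays of 1 RNA pool. Col4a1 and Itgb1 are highest with DSS and lowest with DSS+DPG, Col4a3 is high only in UN, and Itga2 and Itga3 stay within a narrow band.

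Col4a1 encodes the alpha 1 chain of the common type IV collagen network. Its Ct was 27.68, 28.01 and 27.87 on the DSS+DPG arrays, 24.23, 24.16 and 24.19 on the DSS arrays, and 25.16, 25.10 and 24.98 on the UN arrays. The 3 groups did not overlap, with the earliest cycles in DSS and the latest in DSS+DPG. As delta Ct, Col4a1 averaged 4.41 ± 0.18 in DSS+DPG, 1.96 ± 0.041 in DSS and 3.08 ± 0.11 in UN (SD, n = 3 arrays each). The log2 fold change was -2.45 (SE 0.092) between DSS+DPG and DSS (5.47-fold lower, limma adjusted p = 3.80e-08), and 1.12 (SE 0.092) between DSS and UN (2.17-fold higher, limma adjusted p = 7.54e-06). Col4a1 in DSS+DPG was also 2.52-fold below UN (log2 fold change -1.33, limma adjusted p = 2.38e-06). Its order of levels, highest first, was DSS, UN, DSS+DPG, and each neighbour in that order passed the test. The fall with DPG kept its sign and its call under all 11 other references tried, at log2 values between -3.66 and -0.68. Most of these references share housekeeping genes with the main one. The rise with DSS kept both under 10 of 11, and became -0.33 (limma adjusted p = 0.00858) when the panel's median Ct was the reference.

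Col4a3 encodes the alpha 3 chain, the autoantigen of Goodpasture disease. Its Ct was 35.09, 36.36 and 35.71 on the DSS+DPG arrays, 34.39, 35.04 and 34.78 on the DSS arrays, and 31.92, 31.84 and 32.01 on the UN arrays. UN stood clear of the other groups, whose delta Ct values overlapped, at 11.64 to 12.93 in DSS+DPG and 12.08 to 12.88 in DSS. Col4a3 was 5.99-fold lower in DSS than in UN (log2 fold change -2.58, SE 0.33, limma adjusted p = 0.000116), the lowest log2 fold change but 1 among the 84 genes, and 5.12-fold lower in DSS+DPG than in UN (-2.36, SE 0.33, limma adjusted p = 0.000175). Both differences were lower under all 11 other references, which bear on the reference and not on the late cycles. The log2 fold change was 0.23 (SE 0.33) between DSS+DPG and DSS and did not pass (limma adjusted p = 0.523). At these late cycles the SD of Ct was 0.64 cycles in DSS+DPG and 0.33 in DSS, compared with 0.085 in UN. With a limit of 35 cycles in place of 38, the value between DSS+DPG and DSS became 0.93 (limma adjusted p = 0.000613). Every DSS+DPG array was past that limit and was set to 35, so neither this value nor its p-value is a reading of Col4a3 there. Without a reference, Col4a3 came up 0.98 cycles later in DSS+DPG than in DSS. The size of the fall against UN also depends on the limit. Over all settings tried, that limit included, the value between DSS+DPG and UN lay between -3.80 and -1.60.

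The ratio of Col4a3 to Col4a1 needs no housekeeping gene, and it was highest in UN, lowest in DSS and between them in DSS+DPG. Relative to Col4a1 on the same array, Col4a3 was 6.39-fold higher in DSS+DPG than in DSS (log2 2.68, SE 0.25, limma adjusted p = 4.48e-06). In that comparison Col4a1 itself was lower (-2.45) and Col4a3 did not pass the test (0.23). The ratio was lower in DSS than in UN (log2 -3.70, SE 0.25, limma adjusted p = 4.40e-07). Between DSS+DPG and UN the ratio was 2.03-fold lower (log2 -1.02, limma adjusted p = 0.00379), and that call was lost with a limit of 35 cycles (-0.30, limma adjusted p = 0.103).

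Itgb1 encodes the beta 1 chain, without which none of the collagen receptors here is formed. Its Ct was 25.67, 25.74 and 25.70 on the DSS+DPG arrays, 23.30, 23.21 and 23.20 on the DSS arrays, and 23.27, 23.25 and 23.25 on the UN arrays. DSS+DPG stood more than 2 cycles later than both other groups, which overlapped in Ct. As delta Ct, Itgb1 averaged 2.26 ± 0.045 in DSS+DPG, 1.01 ± 0.036 in DSS and 1.26 ± 0.024 in UN (SD, n = 3 arrays each). The chain's transcript was 2.39-fold lower in DSS+DPG relative to DSS (log2 fold change -1.26, SE 0.035, limma adjusted p = 5.67e-09), and 2.01-fold lower relative to UN (-1.01, limma adjusted p = 4.94e-08). At -1.26 the value against DSS lay near the panel's median of -1.30, at place 41 of 84 from the highest. The step between DSS and UN was small, at 1.19-fold higher (0.25, SE 0.035, limma adjusted p = 0.000198). It kept its call under 8 of 11 other references, was not seen in Ct itself (means of 23.24 and 23.26 cycles, exact permutation test, two-sided, p = 0.6), and became -1.19 with the panel's median as reference. The fall between DSS+DPG and DSS held under 10 of 11 other references and became 0.52 with the panel's median Ct.

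Itga1 encodes the alpha 1 chain, whose dimer with beta 1 prefers type IV collagen and is found on smooth muscle and stromal cells. Its Ct was 28.56, 28.37 and 28.44 on the DSS+DPG arrays, 26.56, 26.49 and 26.51 on the DSS arrays, and 25.88, 25.80 and 25.79 on the UN arrays. As delta Ct it averaged 5.02 ± 0.087 in DSS+DPG, 4.29 ± 0.040 in DSS and 3.82 ± 0.061 in UN (SD, n = 3 arrays each). The groups did not overlap, and the order of levels, highest first, was UN, DSS, DSS+DPG. Itga1 was 1.66-fold lower in DSS+DPG relative to DSS (log2 fold change -0.73, SE 0.053, limma adjusted p = 2.95e-06). It was 1.38-fold lower in DSS than in UN (-0.47, SE 0.053, limma adjusted p = 6.12e-05). In DSS+DPG it lay 2.29-fold below UN (-1.19, limma adjusted p = 1.59e-07), a difference that was lower under all 11 other references. The value between DSS+DPG and DSS turned to 1.05 with the panel's median as reference, and the value between DSS and UN, lower under 8 of 11 other references, turned to 0.58 with Cdh1 alone.

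Itga2 encodes the alpha 2 chain, which with beta 1 prefers fibrillar collagens and is also an epithelial integrin. Its Ct was 29.29, 29.36 and 29.32 on the DSS+DPG arrays, 28.18, 27.90 and 27.98 on the DSS arrays, and 27.69, 27.52 and 27.61 on the UN arrays. As delta Ct it averaged 5.88 ± 0.045 in DSS+DPG, 5.79 ± 0.069 in DSS and 5.61 ± 0.089 in UN (SD, n = 3 arrays each), and DSS+DPG and DSS overlapped. The log2 fold change was -0.09 (SE 0.056) between DSS+DPG and DSS and did not pass (limma adjusted p = 0.147). Itga2 was 1.13-fold lower in DSS than in UN (-0.18, SE 0.056, limma adjusted p = 0.0146) and 1.21-fold lower in DSS+DPG than in UN (-0.28, limma adjusted p = 0.00173). The difference between DSS and UN was lower under 6 of 11 other references and higher under 3, up to 0.86 with Cdh1 alone, and it lost its call without the third array of each group (-0.19, limma adjusted p = 0.116). That between DSS+DPG and DSS was lower under 6 of 11 other references, and without the first array of each group it was -0.15 (limma adjusted p = 0.0174).

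Itga3 encodes the alpha 3 chain, which with beta 1 is a laminin receptor of epithelial cells. Its Ct was 27.55, 27.57 and 27.57 on the DSS+DPG arrays, 26.66, 26.57 and 26.61 on the DSS arrays, and 26.42, 26.38 and 26.39 on the UN arrays. As delta Ct it averaged 4.12 ± 0.020 in DSS+DPG, 4.38 ± 0.031 in DSS and 4.40 ± 0.031 in UN (SD, n = 3 arrays each). DSS and UN overlapped, and the difference between them did not pass (log2 fold change 0.01, SE 0.030, limma adjusted p = 0.665). In DSS+DPG relative to DSS, Itga3 was 1.20-fold higher (0.26, SE 0.030, limma adjusted p = 6.52e-05) and 1.21-fold higher relative to UN (0.27, SE 0.030, limma adjusted p = 4.33e-05), the only member called higher in either comparison. These small steps rest on the reference: that between DSS+DPG and DSS was higher under 7 of 11 others, did not pass under 2, and was lower under 2, at -0.57 with the 3 genes Itga3, Mif and Hsp90ab1 as reference and -0.95 with none. Under the first of these 2, Itga3 is partly set against itself, which damps its value.

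Itga6 encodes the alpha 6 chain, the laminin-binding chain that in epithelial cells also pairs with beta 4 in hemidesmosomes; the beta 4 gene was not on the array. Its Ct was 29.08, 28.97 and 29.00 on the DSS+DPG arrays, 27.99, 27.82 and 27.88 on the DSS arrays, and 27.06, 26.85 and 26.91 on the UN arrays. As delta Ct, UN (4.94 ± 0.12) was clear of DSS+DPG (5.58 ± 0.048) and DSS (5.67 ± 0.010; SD, n = 3 arrays each). Itga6 was 1.65-fold lower in DSS than in UN (log2 fold change -0.73, SE 0.058, limma adjusted p = 6.32e-06) and 1.55-fold lower in DSS+DPG than in UN (-0.64, SE 0.058, limma adjusted p = 1.28e-05). The fall with DSS was lower under 10 of 11 other references and became 0.32 with Cdh1 alone. The value was 0.09 (SE 0.058) between DSS+DPG and DSS and did not pass (limma adjusted p = 0.175), although the arrays of these groups did not overlap in delta Ct. Under the 11 other references it was higher 2 times, lower 3 times and did not pass 6 times.

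**Figure D2:**
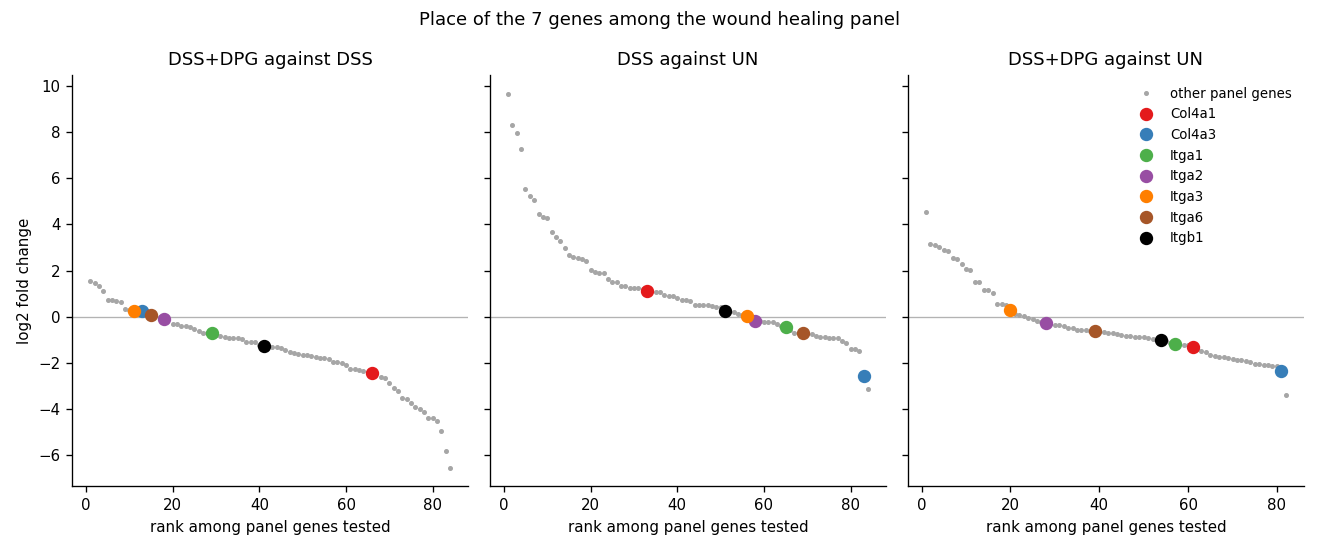
Log2 fold change of every panel gene tested, ranked from highest to lowest, for DSS+DPG against DSS, DSS against UN, and DSS+DPG against UN; grey dots are the other genes and coloured dots the 7 genes. With DPG added to DSS most of the panel lies below 0 (median -1.30), with Itga3, Col4a3, Itga6 and Itga2 near 0 and Col4a1 at -2.45, and in DSS against UN Col4a3 at -2.58 is near the lower end.

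Whether the alpha chains kept step with their partner was read as the ratio to Itgb1 on the same array, which does not depend on the housekeeping genes. In DSS+DPG against DSS all 4 alpha chains were higher relative to Itgb1. The ratio was 2.86-fold higher for Itga3 (log2 1.52, SE 0.031, limma adjusted p = 2.70e-09) and 2.54-fold higher for Itga6 (1.35, SE 0.065, limma adjusted p = 2.31e-07). It was less raised for the collagen-binding Itga2 (1.16, SE 0.057) and Itga1 (0.53, SE 0.064). Relative to the housekeeping genes Itgb1 itself was lower (-1.26), as was Itga1 (-0.73). By that measure Itga2 (-0.09) and Itga6 (0.09) did not pass and only Itga3 was higher (0.26). Among the 83 genes, 42.2% were higher and 47.0% lower relative to Itgb1 in this comparison. Col4a1 was lower relative to Itgb1 (-1.19, SE 0.072, limma adjusted p = 1.02e-06) and Col4a3 higher (1.48, SE 0.30, limma adjusted p = 0.00188).

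In DSS against UN the same ratios ran the other way. Itga6 was lower relative to Itgb1 (log2 -0.98, SE 0.065, limma adjusted p = 1.60e-06), as were Itga1 (-0.72), Itga2 (-0.43) and Itga3 (-0.24), whereas Col4a1 was higher (0.87, SE 0.072, limma adjusted p = 7.14e-06); of the 83 genes, 34.9% were lower and 57.8% higher. Over both steps, in DSS+DPG against UN, the data left Itga3 (1.28), Itga2 (0.73) and Itga6 (0.37) higher relative to Itgb1, and Col4a3 (-1.35), Col4a1 (-0.33) and Itga1 (-0.19) lower, where 56.8% of 81 genes were higher and 30.9% lower. The Itga1 value was the least firm of these (limma adjusted p = 0.0253), and ranged between -0.25 and -0.12 with arrays left out, at adjusted p up to 0.170; it lost its call without UN array 2, UN array 3 or DSS+DPG array 3, and without the first arrays or the third arrays of all groups. Col4a1 (adjusted p = 0.0673) and Col4a3 (adjusted p = 0.0528) lost theirs without the third array of every group.

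**Figure D3:**
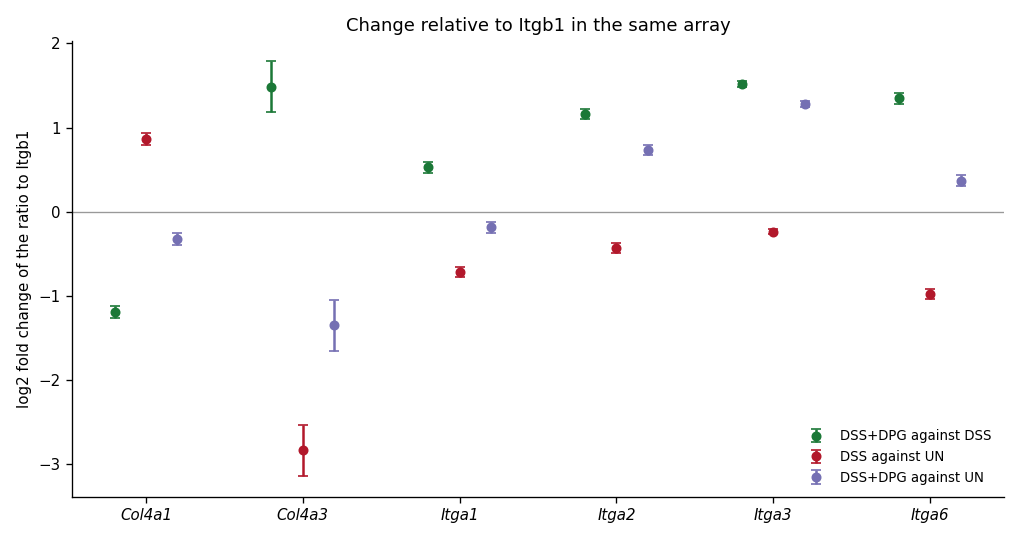
Log2 fold change of the ratio of each gene to Itgb1 on the same array, with bars of 1 SE, for DSS+DPG against DSS (green), DSS against UN (red) and DSS+DPG against UN (violet). The 4 alpha chains lie above 0 in DSS+DPG against DSS and below 0 in DSS against UN, and Col4a1 does the opposite.

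A change of reference moves every gene of a comparison by the same amount, so it can turn the sign of single genes but not their order. The housekeeping genes themselves came up later in DSS+DPG than in DSS, by 0.393 cycles for Hsp90ab1, 1.06 for Gapdh, 1.25 for Gusb, 1.63 for Actb and 1.71 for B2m (exact permutation test, two-sided, p = 0.1 for each, the smallest that 3 against 3 arrays can give). Without any reference all 7 genes came up later in DSS+DPG than in DSS, between 0.95 cycles for Itga3 and 3.66 for Col4a1. Itga3 has a further place here. The average delta Ct values that the authors deposited equal the average Ct minus 24.86 cycles in DSS+DPG, 24.48 in DSS and 23.84 in UN, which in each group is the geometric mean Ct of 3 genes, Itga3 among them (with Mif and Hsp90ab1), and not the mean of the 5 housekeeping genes (23.44 cycles in DSS+DPG, 22.23 in DSS and 22.00 in UN). Mif, a cytokine, had a Ct of 23.93, 24.03 and 23.01 on the DSS+DPG arrays, the last of these about 1 cycle earlier than the others. With that reference 6 of the 7 genes were lower and none was higher in DSS+DPG relative to DSS.

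**Figure D4:**
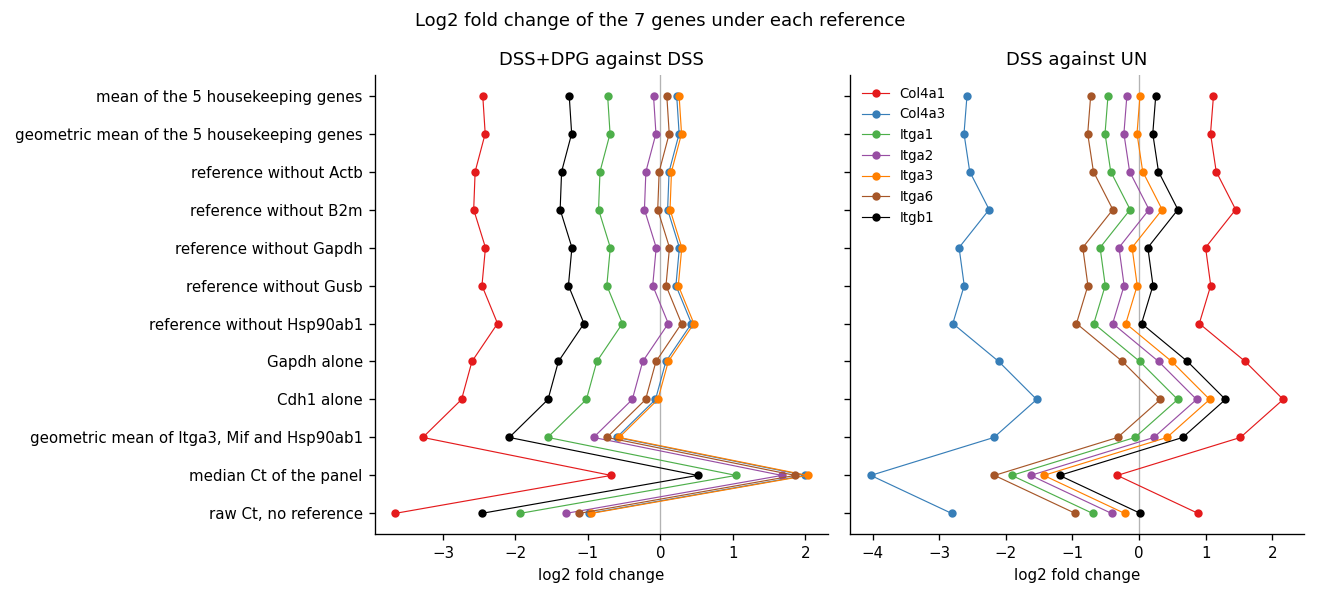
Log2 fold change of the 7 genes in DSS+DPG against DSS and in DSS against UN under the mean of the 5 housekeeping genes (top) and 11 other references, the last being raw Ct. Lines run parallel because a reference shifts all genes alike; Col4a1 is the lowest of the 7 in DSS+DPG against DSS and the highest in DSS against UN under every reference, and only Col4a1 stays below 0 throughout the first comparison.

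Patterns were compared as the root mean square difference of Ct over the 9 arrays, after subtracting each gene's own mean, with 67 other panel genes of Ct below 35 as candidates. Among the 7 genes, Itga2 lay closest to Itga6 (0.232 cycles) and Itga3 (0.235), Itgb1 lay closest to Itga1 (0.310), and Col4a1 and Col4a3 lay farthest apart (1.59). Outside them, the genes most like Itgb1 were Egfr, a growth factor receptor (0.0790 cycles), and Itga5, the fibronectin-binding alpha chain (0.128). Itga6 was most like Ctnnb1, beta-catenin (0.0701), and Rhoa, a GTPase of the cytoskeleton (0.0824). Col4a1 was most like Tgfbr3 (0.188) and F13a1 (0.227), Itga1 like F3 (0.113) and Pdgfa (0.179), Itga2 like Itgb5 (0.142) and Vegfa (0.215), and Itga3 like Vegfa (0.273) and Col1a1 (0.279). For Col4a3 the closest candidates were the muscle actins Actc1 (0.512) and Acta2 (0.576). Genes as late as Col4a3 were not candidates, and its own repeat arrays scattered widely (SD of Ct 0.64 in DSS+DPG and 0.33 in DSS), so these distances cannot show whether it has a near neighbour. These are descriptions over 9 arrays of 3 pools.

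The other adhesion and matrix genes of the array were counted for comparison. Of the 6 other integrin chains (Itga4, Itga5, Itgav, Itgb3, Itgb5 and Itgb6), all 6 were lower in DSS+DPG relative to DSS (median -1.13 on the log2 scale), with extremes of -1.52 for Itgav, the vitronectin and fibronectin receptor chain, and -0.34 for Itgb5. In DSS against UN 4 of these 6 were higher and 1 was lower, with Itga4, the leukocyte chain, the highest at 0.94. Of the 7 fibrillar and associated collagens, all 7 were lower in DSS+DPG relative to DSS (median -1.77), down to -3.55 for Col3a1, and in DSS against UN 5 were higher and 1 lower. Col4a1 shared the direction of most interstitial collagens in both comparisons, and Col4a3 passed the test in neither of those directions. Of 7 proteases and inhibitors that act on the basement membrane, 5 were lower and 1 higher in DSS+DPG than in DSS (median -1.64), and 6 were higher in DSS than in UN (median 1.88), up to 4.30 for Timp1, an inhibitor of metalloproteinases.

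Short lists of cell type markers from the same array also differed between the groups. Each is given as a summed relative level (the sum of 2 to the power of minus delta Ct), which is weighted by its most abundant assays and takes them as equally efficient, and by the direction of its members. The 6 fibroblast genes were all collagens (Col14a1, Col1a1, Col1a2, Col3a1, Col5a1 and Col5a2), counted above as well, and summed to 0.999 to 1.04 in DSS+DPG, 8.62 to 9.24 in DSS and 3.61 to 3.67 in UN. Col3a1 alone made up 0.680 of the sum in DSS+DPG, 7.94 in DSS and 2.85 in UN. All 6 were lower in DSS+DPG relative to DSS, and 5 were higher in DSS relative to UN, the exception being Col14a1 (log2 fold change -0.87). The 4 genes of neutrophils and macrophages (F13a1, Il1b, Mmp9 and Plaur) summed to 0.0563 to 0.0579 in DSS+DPG, 0.686 to 0.697 in DSS and 0.0383 to 0.0395 in UN. All 4 were lower in DSS+DPG relative to DSS and higher in DSS relative to UN. In DSS+DPG relative to UN they split, with 2 higher and 2 lower. The 3 smooth muscle genes Acta2, Actc1 and Tagln summed to 1.39 to 1.44 in DSS+DPG, 2.44 to 2.55 in DSS and 4.57 to 6.06 in UN. All 3 were lower in DSS than in UN, whereas in DSS+DPG relative to DSS 2 were lower and Actc1, a small part of the sum, was higher (1.10, limma adjusted p = 1.63e-05). That call rests on the reference, since the mean Ct of Actc1 was 33.35 in DSS+DPG and 33.24 in DSS. The 3 epithelial genes Cdh1, Itgb6 and Tgfa summed to 0.387 to 0.394 in DSS+DPG, 0.355 to 0.375 in DSS and 0.620 to 0.687 in UN. Cdh1 and Tgfa were higher in DSS+DPG relative to DSS and lower in DSS relative to UN, and Itgb6 ran the other way in both (-0.94 and 0.45). The 4 lymphocyte genes (Cd40lg, Ifng, Il2 and Il4) summed to 0.00513 to 0.00609 in DSS+DPG, 0.00862 to 0.00885 in DSS and 0.000983 to 0.00115 in UN. Ifng alone made up 0.00428 of the sum in DSS+DPG and 0.00693 in DSS. All 4 were higher in DSS relative to UN. In DSS+DPG relative to DSS 3 were lower and Cd40lg was higher (1.55). Cd40lg came late, at a mean Ct of 33.76 in DSS+DPG and 34.09 in DSS. Most of its value came from the housekeeping mean, at 23.44 and 22.23 cycles in those groups. Il2 was later still, at 37.85 and 35.54, near the limit of 38, so both calls are less firm. The part of these cell types in the values of the 7 genes was not tested.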

How the data were processed

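The authors deposited raw Ct values, a log2 scale on which 1 cycle is a doubling, for 84 genes, 5 housekeeping genes and control wells of a wound healing PCR array, with 3 arrays for each of the pools DSS+DPG, DSS and UN. They also deposited averages of Ct and delta Ct, read here only to find their reference, and columns of fold changes, fold regulation, p-values and false discovery rates, which were not used. PCR ran on total RNA reverse transcribed with the kit of the array's maker, and the fluorescence threshold is not stated in these sources.

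Empty wells and cycles past 38 were set to 38, which touched no member. Delta Ct used the mean of the housekeeping genes named in the methods (Hsp90ab1, Gusb, Gapdh, B2m and Actb). All 9 arrays were fitted with limma 3.58.1 in R 4.3.3, and p-values were adjusted by Benjamini-Hochberg among the genes tested (84, or 82 for DSS+DPG against UN, where 2 genes were at 38 in every array). Further fits used Itgb1 or Col4a1 of the same array as the reference. The fit was tested on simulated data. The alternatives were other references, limits of 35 and 40 cycles, a filter at 35, only the groups compared, a replicate block, and arrays left out. All 7 members are named, and for each the 2 genes of the most similar pattern. Members and lists were chosen with earlier results of these data known. Figures were drawn with matplotlib 3.10.9. Ct carries no read depth, so precision is given by the repeat arrays.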

Additional observations from a re-analysis of the deposited data

How the results depend on the processing

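One RNA pool stands for each group, Col4a3 came up late, and the choice of reference sets the sign of small changes. Of 231 fold changes recomputed under 11 other references, 175 kept their direction and call, 37 changed sign, 13 gained a call and 6 lost it. Between DSS+DPG and DSS, Col4a1 stayed lower under all of them, and the differences relative to Itgb1 or Col4a1 use no housekeeping gene. A change of reference shifts all genes of a comparison alike, and why the references differ was not tested.

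In this section the single values given under another reference are those that changed sign, and not all of them passed the test. Between DSS+DPG and DSS (1 higher and 3 lower with the 5 housekeeping genes), 2 were higher without Hsp90ab1 in the reference, namely Itga3 and Itga6. Itga2 became 0.11 there and did not pass. Without Actb and without B2m, Itga6 became -0.016 and -0.036. With Gapdh alone 0 were higher and Itga6 was -0.06. With Itga3, Mif and Hsp90ab1 as reference 0 were higher and 6 lower, with Col4a3 at -0.60, Itga3 at -0.57 and Itga6 at -0.74. With the panel's median Ct 6 were higher and 1 lower, with Itga1 at 1.05, Itga2 at 1.68 and Itgb1 at 0.52. With Cdh1 alone 0 were higher and 5 lower, with Col4a3 at -0.067, Itga3 at -0.033 and Itga6 at -0.20. With raw Ct 0 were higher and 7 lower, with Col4a3 at -0.98, Itga3 at -0.95 and Itga6 at -1.12. With a limit of 35 cycles 2 were higher, but 1 of them was Col4a3, whose DSS+DPG arrays were all set to that limit. With only the groups compared 2 were higher, Itga6 (0.09) being added.

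Between DSS and UN (2 higher, 4 lower), Itga3 became -0.031 with the geometric mean of the housekeeping genes, -0.105 without Gapdh, -0.028 without Gusb and -0.20 without Hsp90ab1, where 1 gene was higher. Without B2m 4 were higher and Itga2 was 0.15. With Gapdh alone 4 were higher and 2 lower, with Itga1 at 0.01 and Itga2 at 0.29. With Itga3, Mif and Hsp90ab1 as reference 2 were lower and Itga2 was 0.22. With the panel's median Ct 0 were higher and 7 lower, with Col4a1 at -0.33, Itga3 at -1.43 and Itgb1 at -1.19. With Cdh1 alone 6 were higher and 1 lower, with Itga1 at 0.58, Itga2 at 0.86 and Itga6 at 0.32. With raw Ct 1 was higher and Itga3 was -0.22.

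Between DSS+DPG and UN (1 higher, 6 lower), Itga2 became 0.05 with Gapdh alone, 0.052 with the panel's median and 0.48 with Cdh1 alone. With Cdh1 alone 2 genes were higher, Itga2 and Itga3, and Itga6, at 0.12, did not pass. With Itga3, Mif and Hsp90ab1 as reference 0 were higher and Itga3 was -0.15. With raw Ct 0 were higher and Itga3 was -1.17. Relative to Col4a1, Col4a3 was -0.30 with a limit of 35 cycles, and relative to Itgb1, Itga1 was -0.19 (adjusted p = 0.058) with only the groups compared. Where only genes below 35 cycles were fitted, Col4a3 gave no value.

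With arrays left out, singly or by replicate number, the genes higher between DSS+DPG and DSS numbered 1 to 2, Col4a3 in that comparison ranged between -0.093 and 0.55, and Itga3 between DSS and UN ranged between -0.021 and 0.032. In DSS+DPG against UN relative to Itgb1, Itga1 ranged between -0.25 and -0.12, Col4a1 between -0.43 and -0.27 and Col4a3 between -1.65 and -1.01, each losing its call without the third arrays (adjusted p = 0.170, 0.0673 and 0.0528), and Itga1 also without the first arrays and without UN array 2, UN array 3 or DSS+DPG array 3. Without the first UN array Itga6 passed between DSS+DPG and DSS (0.09, adjusted p = 0.0339).

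No origin for the replicate numbers is given. The deviations of same-numbered arrays gave 9 correlations between -0.19 and 0.34, 4 of them above 0.1. Those between UN and DSS were 0.34, 0.073 and 0.21, while arrays of different number gave values between -0.34 and 0.29. With a replicate block the counts were again 1 higher and 3 lower between DSS+DPG and DSS, 2 and 4 between DSS and UN, and 1 and 6 between DSS+DPG and UN, and no call changed.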
